A study of Mus musculus with 2 samples.

Results

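Malat1-poor endothelial barcodes were droplet barcodes of mouse lung cells that carried endothelial transcripts but hardly any Malat1, a long noncoding RNA that stays in the nucleus. They were selected on 4 measured values: 1000 to 5000 genes, under 20% mitochondrial UMIs, at least 2 UMIs of Pecam1 plus Cdh5, and Malat1 under 0.5% of the UMIs of the barcode. A UMI is a molecular tag that counts 1 captured RNA molecule. The rule found 353 control and 880 B16-F10 barcodes, 1233 of the 16262 barcodes that met its other 3 limits. The remaining 7921 and 7108 barcodes, with Malat1 at 0.5% or more, are called Malat1-rich and serve as the comparison. Without the limit on Pecam1 plus Cdh5, the series held 16715 barcodes with the same gene and mitochondrial limits.

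Both libraries came from wild-type C57BL/6 mice. The control mice received PBS and the others 400000 B16-F10 cells, a mouse skin melanoma line labelled with a green tracker dye, in 100 µl through the tail vein, and lungs were taken 6 h later. Pecam1-positive, Ptprc-negative cells were sorted after collagenase digestion and lysis of red blood cells, and dyed melanoma cells were added to the B16-F10 sample. Mice were pooled within a treatment (2 per treatment in the labels, 3 in the study's methods) and each treatment gave 1 library, so no test was possible and every interval below covers counting error only. The libraries held 85794655 and 104978816 UMIs over all barcodes, and 17 barcode sequences occurred in both, none of them Malat1-poor in both.

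Malat1 accumulates in nuclear speckles, the compartments where splicing factors are stored, and is among the most abundant RNAs of a nucleus. Unspliced pre-mRNA and several other long noncoding RNAs, such as Neat1 of the paraspeckles, also stay in the nucleus, while mRNAs of ribosomal proteins and transcripts of the mitochondrial genome lie in the cytoplasm. Blood holds anucleate cells of its own, among them young red cells, which keep haemoglobin mRNA, and platelets, which keep megakaryocyte transcripts such as Pf4 and Ppbp.

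The haemoglobin genes named for these barcodes come in near-identical pairs, which bears on how their counts can be read. Hba-a1 and Hba-a2 (chromosome 11, plus strand) encode alpha globin, and Hbb-bs and Hbb-bt (chromosome 7, minus strand) encode adult beta globin. The coding sequences of the alpha pair differ at 1 of 426 bases and those of the beta pair at 1 of 441. In both pairs that base lies in the coding part of the last exon, 126 bases next to the 3′ end that this assay reads. These stretches are shown to make plain how little separates the copies, with the differing base in capitals, 5′ to 3′, from the GENCODE M21 transcripts on GRCm38 (chr11:32284263-32284388, chr11:32297080-32297205, chr7:103826668-103826793 and chr7:103812659-103812784 in the order below).
Hba-a1: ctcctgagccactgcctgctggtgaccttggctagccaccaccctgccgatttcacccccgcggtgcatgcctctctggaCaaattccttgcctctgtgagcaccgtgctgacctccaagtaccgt
Hba-a2: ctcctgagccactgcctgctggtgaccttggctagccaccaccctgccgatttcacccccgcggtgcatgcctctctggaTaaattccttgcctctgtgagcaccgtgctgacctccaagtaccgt
Hbb-bs: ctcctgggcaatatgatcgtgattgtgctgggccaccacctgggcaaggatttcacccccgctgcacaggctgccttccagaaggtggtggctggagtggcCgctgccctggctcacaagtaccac
Hbb-bt: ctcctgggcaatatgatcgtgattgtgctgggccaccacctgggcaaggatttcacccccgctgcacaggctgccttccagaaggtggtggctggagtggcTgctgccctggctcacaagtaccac
Counts of a single copy are uncertain where reads fall in these stretches, and the 4 genes are mostly treated as 1 list. The untranslated parts of the transcripts were not compared.

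Malat1-poor barcodes made up 4.27% of control endothelial barcodes (353 of 8274, exact 95% interval 3.84 to 4.72) and 11.0% of those from B16-F10 lungs (880 of 7988, 10.3 to 11.7). The share was 6.75 percentage points higher in the B16-F10 library (5.94 to 7.57), beyond counting error. With 1 library per group, treatment and library cannot be told apart. The share also differed with the number of genes. Among barcodes with 300 to under 1000 genes and the same endothelial limit it was 65.3% (465 of 712, 61.7 to 68.8) in control and 80.9% (700 of 865, 78.1 to 83.5) in B16-F10, and above 5000 genes it was 0.608% (2 of 329) and 0.658% (4 of 608).

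Malat1 fell into 2 populations of barcodes, as the histogram of its share shows. Malat1-poor barcodes had a median of 1 Malat1 UMI in both libraries, 0.0426% and 0.0453% of their UMIs, against 292 and 314 UMIs (3.66% and 3.39%) in Malat1-rich barcodes. No Malat1 UMI at all was found in 91 control barcodes (25.8%) and 228 B16-F10 barcodes (25.9%). These values chose the barcodes and are given as a description.

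**Figure D1:**
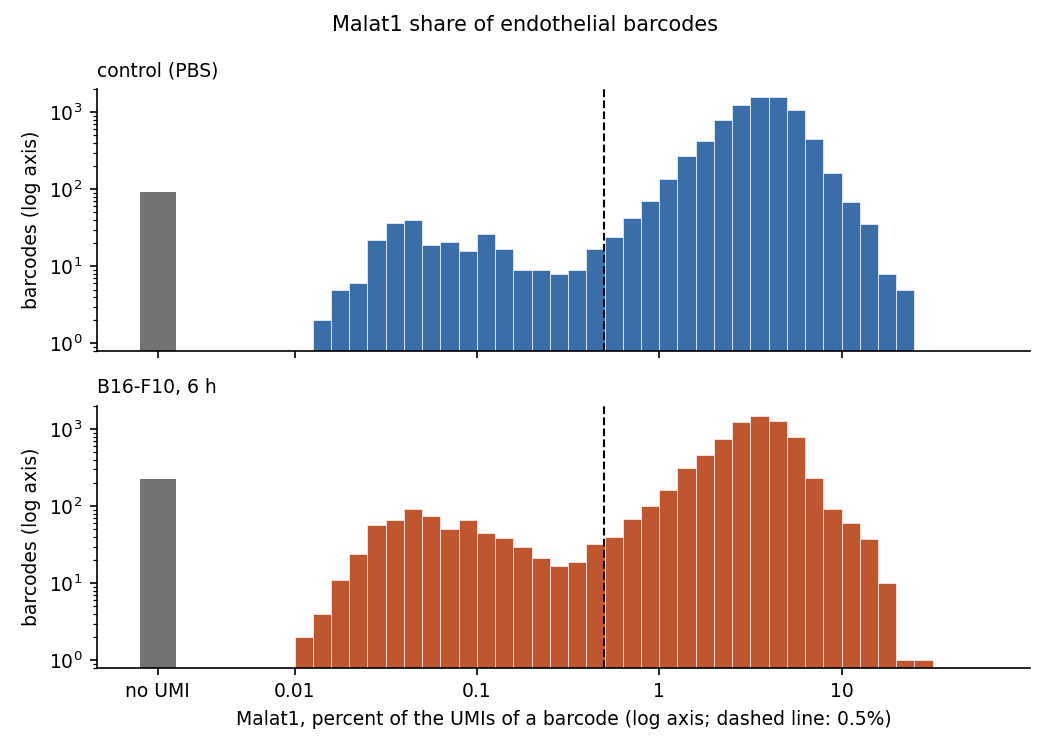
Barcodes with endothelial transcripts by the Malat1 percent of their UMIs (log x axis, bins of 0.1 log10 units; grey bar, no Malat1 UMI) in the control library (top) and the B16-F10 library (bottom), on a log count axis. The dashed line is the 0.5% limit: 353 and 880 barcodes lie to its left, and counts are lowest a little below it.

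The limit lies on the rising flank of the larger population, not in the trough. Just inside it, at 0.4 to 0.5%, were 17 control and 32 B16-F10 barcodes with a median of 6908 and 7197 UMIs, and just outside, at 0.5 to 0.6%, were 18 and 26 with 7569 and 10268. Ribosomal protein mRNA took 10.1% and 10.8% of UMIs inside and 11.7% and 9.27% outside, so neighbours of the limit were much alike. The bulk of the Malat1-poor set was of another kind: the 319 control and 812 B16-F10 barcodes under 0.25% had a median of 2797 and 3004 UMIs, and the 34 and 68 between 0.25% and 0.5% had 6710 and 6277.

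The Malat1-poor barcodes were small. Their median was 2841 UMIs (10th to 90th percentile 2015 to 5606) and 1372 genes in control, and 3076 UMIs (2019 to 6114) and 1474 genes in B16-F10. Malat1-rich barcodes had 7770 UMIs (3881 to 12724) and 3082 genes, and 9206 UMIs (5515 to 14070) and 3422 genes. At an equal depth of 2000 UMIs, which left out 34 and 81 Malat1-poor and 81 and 47 Malat1-rich barcodes, the medians came to 1095 and 1116 genes against 1254 and 1265. Most of the gap in detected genes was thus absent at equal depth, and a smaller gap was still there.

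Nuclear RNA was low in the Malat1-poor barcodes of both libraries. The list of nuclear long noncoding RNAs, which leaves out Malat1, summed to 193 CPM (UMIs per 1000000 UMIs of the set, 95% Poisson interval 170 to 219) in Malat1-poor and 936 CPM (928 to 943) in Malat1-rich control barcodes. In the B16-F10 library it summed to 172 CPM (158 to 187) and 678 CPM (671 to 684). The log2 ratios of -2.28 (-2.46 to -2.09) and -1.98 (-2.10 to -1.86) correspond to levels 4.84-fold and 3.93-fold lower than in Malat1-rich barcodes. Of its 13 members with at least 50 UMIs, 11 were lower in control and 13 in B16-F10, none was higher, and 8 and 9 were lower by 2-fold or more. The other 2 in control (Meg3 and Pvt1) had no UMI in Malat1-poor barcodes and 51 and 62 in Malat1-rich ones, too few for a ratio. For comparison, 19.2% of all 13535 genes with at least 50 UMIs were 2-fold lower in control and 21.8% of 13741 in B16-F10. These contrasts are the ones the rule created, so they are described, not tested.

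Neat1, the scaffold of paraspeckles (chromosome 19, 5824708 to 5845478, minus strand, GRCm38), had 42 UMIs in Malat1-poor and 14550 in Malat1-rich control barcodes, and 137 and 10855 in the B16-F10 library. Its log2 ratios were -2.77 (-3.24 to -2.34) and -1.98 (-2.24 to -1.74). Kcnq1ot1 and Airn, antisense RNAs that silence imprinted neighbours, had -3.30 and -2.96, and -2.82 and -2.73. Dleu2, a microRNA host transcript, had -3.21 and -2.67. Thus each of the 4 members with most UMIs in both sets was lower by at least 1.98 on the log2 scale in both libraries, although on 10 to 137 UMIs in Malat1-poor barcodes. Peg13, a noncoding RNA of an imprinted cluster named here after its values were seen, was near its level in Malat1-rich barcodes, at -0.06 and -0.36. At 2000 UMIs per barcode, 29.8% (24.8 to 35.1) and 24.9% (21.9 to 28.1) of Malat1-poor barcodes kept a UMI of the list, against 78.0% and 68.8% of Malat1-rich ones. Unthinned, the shares were 39.8% and 38.3% against 97.9% and 96.8%.

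Messenger RNAs of splicing factors that often keep an intron and wait in the nucleus behaved alike, with a smaller difference. All 25 were lower in both libraries, with summed log2 ratios of -0.74 (-0.78 to -0.70) and -0.73 (-0.75 to -0.70), and 10 and 9 of them passed 2-fold, beside 19.2% and 21.8% of all genes. Rbm39 and Srrm2, both splicing proteins, had -0.39 and -0.77 in control and -0.67 and -0.64 in B16-F10. Ddx5, an RNA helicase, had -0.65 and -0.49, and Son, a speckle protein, -0.74 and -0.76.

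Gene length separated the sets further. Where reads in introns are counted, long genes collect reads from nuclear pre-mRNA, and the sources used here do not say whether they were counted. Genes over 100 kb gave 111919 CPM in Malat1-poor and 220890 CPM in Malat1-rich control barcodes (log2 -0.98, -0.99 to -0.97), and 95620 and 189406 CPM in B16-F10 (-0.99, -0.99 to -0.98). Of the genes over 100 kb with at least 50 UMIs, 48.5% of 1883 and 50.5% of 1884 were 2-fold lower. Of those under 10 kb, 6.70% of 3537 and 11.3% of 3625 were. Between them, genes of 10 to 50 kb had 14.4% and 16.7%, and genes of 50 to 100 kb 29.1% and 30.2%, so the share rose with each length class in both libraries.

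The 12 genes lowest in Malat1-poor barcodes in both libraries had 1 to 9 UMIs there and 1218 to 5919 in Malat1-rich barcodes. The annotation calls 9 of them noncoding antisense genes, and 9 of the 12 span over 50 kb. 4930444A19Rik had 5 UMIs against 5919 in control (log2 -4.54, -6.17 to -3.32) and 8 against 3032 in B16-F10 (-4.24, -5.45 to -3.26). Thsd7a, a protein-coding gene of 438 kb, had 3 against 3924 and 7 against 2480. Such long or antisense transcripts were seen in hardly any Malat1-poor barcode. Unthinned, 4930444A19Rik was present in 1.13% and 0.909% of them, against 41.0% and 27.9% of Malat1-rich ones. Thsd7a, which is also on the artery list, was present in 0.567% and 0.682%, against 8.24% and 6.30%. Whether the counting used strand is not stated, so reads of an antisense gene and of its overlapping partner may not be told apart.

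Cytoplasmic RNA took a larger share. All 79 mRNAs of cytosolic ribosomal proteins were higher in Malat1-poor barcodes of both libraries, 75 of them by 2-fold or more in control and 24 in B16-F10, where 5.87% and 4.75% of all genes were. Summed, they took 136663 CPM against 58822 in control (log2 1.22, 1.21 to 1.22) and 139416 against 71390 in B16-F10 (0.97, 0.96 to 0.97). Rps29 had log2 1.35 and 1.10, and Rpl41 1.27 and 1.01. The 13 mitochondrial mRNAs were higher as well, at log2 1.05 (1.04 to 1.07) and 0.93 (0.92 to 0.94), with mt-Atp6, a subunit of the ATP synthase, at 1.12 and 0.96. The rule capped the mitochondrial share at 20%, and the highest values were 14.6% and 11.8% in Malat1-poor and 15.7% and 13.0% in Malat1-rich barcodes.

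Other abundant cytoplasmic mRNAs moved alike. Of 16, all were higher in control and 15 in B16-F10, led by Tmsb4x, which binds actin monomers, at 1.76 and 1.42. Tpt1 had 1.31 and 1.01, Eef1a1, an elongation factor of translation, 1.05 and 0.69, and Actb 0.98 and 0.70. The 35 nuclear-encoded subunits of oxidative phosphorylation were all higher in both, by 0.75 and 0.64 in sum. Heat shock genes, which digestion of tissue can induce, were at 0.60 in both libraries, with Hsp90ab1 at 0.70 and 0.59.

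In UMIs per barcode, the 2 kinds of RNA parted in another way. Ribosomal protein mRNA had a median of 434 UMIs in Malat1-poor and 433 in Malat1-rich control barcodes, and 452 and 609 in B16-F10. Mitochondrial RNA had 144 and 150 UMIs in control and 154 and 214 in B16-F10. Genes over 100 kb had 313 against 1646, and 281.5 against 1691. The abundant cytoplasmic mRNAs had 94 against 105 and 110.5 against 166 UMIs, and the oxidative phosphorylation list 34 against 52 and 39 against 71. Hence ribosomal protein and mitochondrial RNA were about as large per barcode as in Malat1-rich barcodes in control, the other cytoplasmic lists were smaller, all were smaller in B16-F10, and long genes were several-fold smaller in both libraries. Part of each ratio in CPM is therefore set by the smaller total of the Malat1-poor barcodes.

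**Figure D2:**
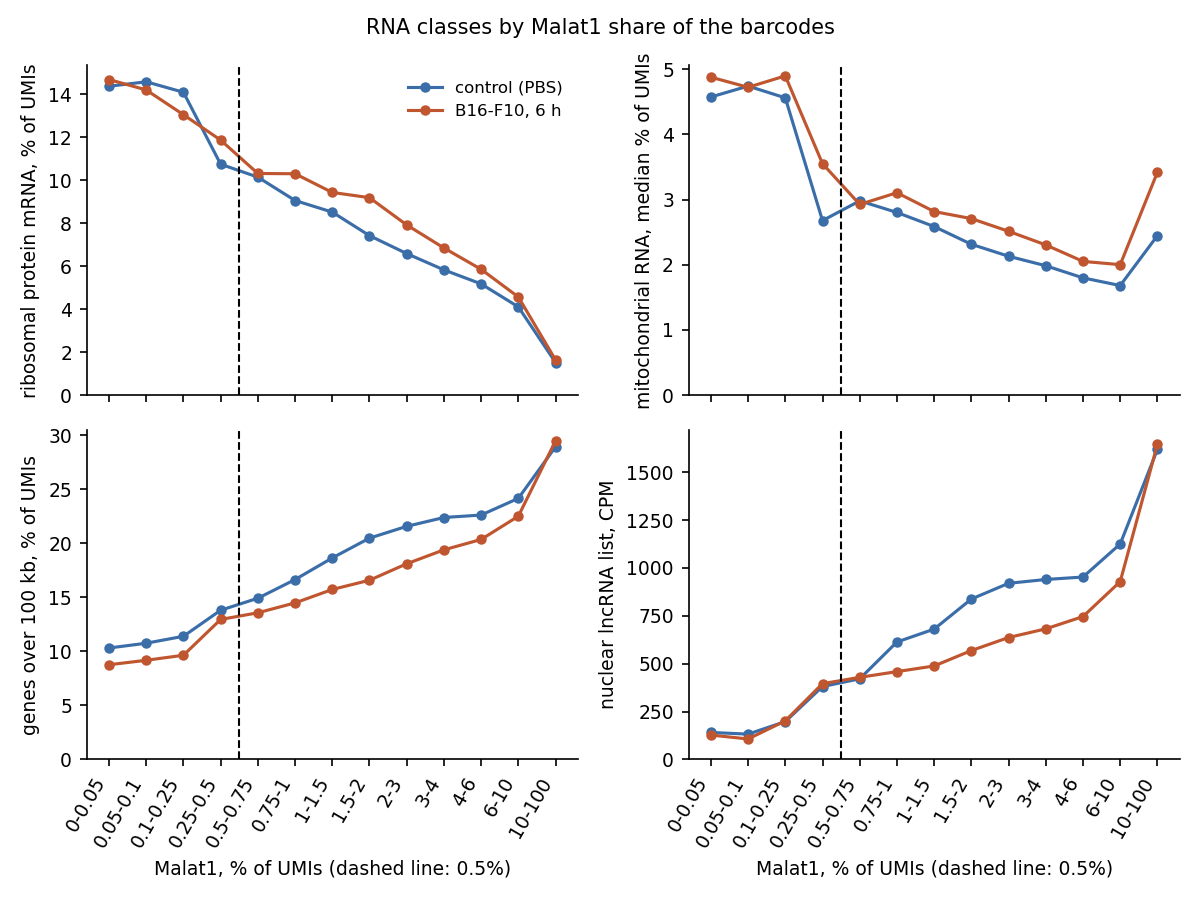
Share of UMIs from cytosolic ribosomal protein mRNAs, mitochondrial RNA (median over barcodes), genes over 100 kb, and CPM of the nuclear long noncoding RNA list, in 13 classes of Malat1 share, with 1 line per library. The first 4 points, left of the dashed line, are Malat1-poor barcodes: ribosomal protein mRNA goes from 14.4% and 14.7% in the lowest class to 10.7% and 11.9% in the class of 0.25 to 0.5%.

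The plot of RNA classes by Malat1 share places the Malat1-poor barcodes at 1 end of a graded series. From the class under 0.05% to that above 10%, ribosomal protein mRNA went from 14.4% to 1.52% of UMIs in control and from 14.7% to 1.63% in B16-F10, and genes over 100 kb from 10.3% to 28.9% and from 8.76% to 29.5%. The 3 classes under 0.25% lay between 13.0% and 14.7% ribosomal protein mRNA, above every class from 0.25% upward. The classes share their libraries and the barcodes differ in depth, so this is a description.

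Single Malat1-poor barcodes bore the sums out. Ribosomal protein mRNA took a median of 14.5% and 14.1% of a barcode's UMIs (10th to 90th percentile 9.12 to 19.6 and 9.48 to 19.1) against 5.41% and 6.71%. In 315 of 353 control (89.2%) and 753 of 880 B16-F10 barcodes (85.6%) it exceeded the 90th percentile of Malat1-rich barcodes. The share of genes over 100 kb lay below the 10th percentile of Malat1-rich barcodes in 345 (97.7%) and 847 (96.3%). Mitochondrial RNA exceeded the 90th percentile in 285 (80.7%) and 700 (79.5%), and detained-intron mRNA fell below the 10th in 287 (81.3%) and 670 (76.1%). Each of these 4 features was thus found in most Malat1-poor barcodes, and not in all.

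Endothelial mRNAs were present at lower levels. The list of 19 pan-endothelial genes had a median of 38 and 34 UMIs per Malat1-poor barcode against 197 and 186, and summed log2 ratios of -0.75 (-0.78 to -0.73) and -0.76 (-0.78 to -0.75). Cldn5, a tight junction protein, had -0.64 and -0.69, Ramp2, a co-receptor for adrenomedullin, -0.59 and -0.58, and Calcrl, its partner receptor, -1.64 and -1.45. Pecam1 and Cdh5, on which the barcodes were selected, had 5 UMIs together at the median in both libraries against 23 and 27. The median over all genes was itself -0.14 and -0.33, and relative to it the pan-endothelial list was at -0.61 and -0.43.

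Capillary markers were lower in sum, but aerocyte markers were found in a larger share of Malat1-poor barcodes at equal depth. General capillary (gCap) genes summed to -0.61 and -0.64, and after thinning to 2000 UMIs 79.0% (74.1 to 83.3) and 79.5% (76.5 to 82.2) of Malat1-poor barcodes had at least 5 UMIs of the list, against 79.1% and 83.1% of Malat1-rich ones (unthinned, 90.6% and 90.6% against 88.7% and 93.7% of the same barcodes). Gpihbp1, which anchors lipoprotein lipase in capillaries, had -0.11 and -0.19. Of 10 aerocyte (aCap) genes, 9 were lower in both libraries, 6 and 7 of them by 2-fold, with a median gene at -1.31 in both. Their sum was at -0.34 and -0.21, relative to the median of all genes at -0.20 in control and, with the sign changed, 0.13 in B16-F10, and against Malat1-rich barcodes under 4000 UMIs at -0.53 and, again with the sign changed, 0.28. After thinning to 2000 UMIs, 77.1% and 78.5% of Malat1-poor barcodes had an aerocyte UMI, against 54.0% and 53.4% of Malat1-rich ones. At least 5 were found in 32.6% (27.5 to 38.0) and 29.5% (26.4 to 32.8), against 21.6% and 16.4%. Car4 and Fibin, both aerocyte markers, had -0.98 and -1.69 in control and -1.24 and -1.53 in B16-F10, whereas Emp2, a membrane protein that lung epithelium also makes, was higher at 0.77 and 0.81.

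Artery markers were low in both libraries. Artery genes summed to -1.66 (-1.90 to -1.43) and -1.51 (-1.68 to -1.35), 6 of 8 lower by 2-fold in each library (19.2% and 21.8% of all genes were), among them Thsd7a and Mecom (597 kb). After thinning to 2000 UMIs, 15.7% (11.9 to 20.1) and 12.5% (10.3 to 15.01) of Malat1-poor barcodes kept a UMI of the list, against 27.1% and 22.0% of Malat1-rich ones (unthinned, 25.4% and 22.0% against 49.2% and 46.6%). Lymphatic genes summed to -0.56 and -0.48, but against Malat1-rich barcodes under 4000 UMIs to 0.01 and 0.29, so their direction was not kept. Vein genes differed between libraries, at 0.09 (-0.01 to 0.18) in control and -1.15 (-1.23 to -1.07) in B16-F10.

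**Figure D3:**
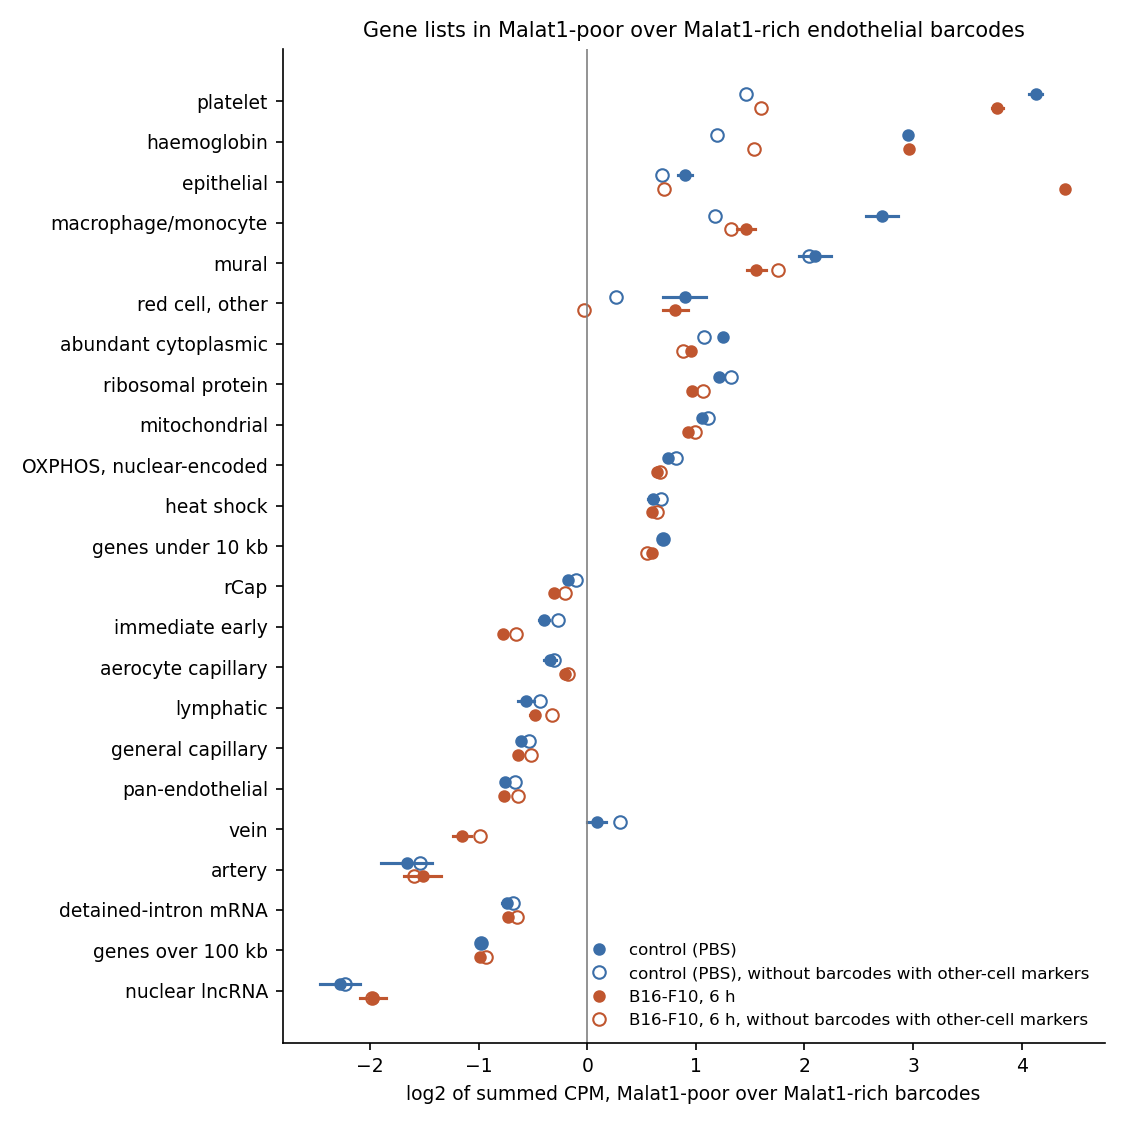
Log2 ratio of summed CPM, Malat1-poor over Malat1-rich barcodes, for gene lists in the control (blue) and B16-F10 (orange) libraries. Filled points with lines are all barcodes with 95% intervals for counting error, and open points leave out barcodes with markers of other cells, high haemoglobin among them, from both sets: the nuclear list is at -2.28 and -1.98 with all barcodes and at -2.23 and -1.98 without those.

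The haemoglobin genes gave a high sum that a handful of barcodes carried. Summed over the 4 genes, haemoglobin was at 12632 CPM in Malat1-poor and 1628 CPM in Malat1-rich control barcodes, and at 14247 and 1826 CPM in B16-F10, a log2 ratio of 2.96 in both (2.93 to 2.98 and 2.95 to 2.98). Yet 1 control barcode held 9178 of the 16013 UMIs and a second 4449, while the third had 50. In the B16-F10 library, 5 barcodes with 20536, 10420, 4281, 2370 and 723 of the 47904 UMIs stood above the rest, of which the next had 38. The first of these held 24604 UMIs, 83.5% of them haemoglobin, with 3 UMIs of Pecam1 plus Cdh5 and 3 of Malat1. Haemoglobin made up 2% or more of UMIs in 2 of 353 (0.567%, 0.0687 to 2.03) and 5 of 880 (0.568%, 0.185 to 1.32) Malat1-poor barcodes, against 15 of 7921 (0.189%) and 10 of 7108 (0.141%).

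In the other barcodes haemoglobin was low. The median was 6 UMIs per Malat1-poor and 6 per Malat1-rich control barcode, and 10 and 9 in B16-F10. As a share of the smaller totals it was higher, with a median of 0.1995% and 0.321% in Malat1-poor against 0.0702% and 0.101% in Malat1-rich barcodes, and 197 control (55.8%) and 683 B16-F10 Malat1-poor barcodes (77.6%) exceeded the 90th percentile of Malat1-rich ones. Thinned to 2000 UMIs, the median was 4 and 6 haemoglobin UMIs against 1 and 2, and 44.2% (38.7 to 49.8) and 68.2% (64.9 to 71.4) of Malat1-poor barcodes had 5 or more, against 7.79% and 13.1% (unthinned, 72.1% and 97.1% against 65.1% and 93.4%). The UMIs per barcode were thus nearly equal between the sets as measured, and higher in Malat1-poor barcodes at equal depth. All 4 genes followed the list, with log2 ratios from 2.91 for Hbb-bs to 3.01 for Hba-a2 in control and from 2.89 for Hbb-bt to 3.04 for Hba-a2 in B16-F10. Hbb-bs was found in 92.9% and 98.6% of Malat1-poor barcodes. Detection did not set them apart: a UMI of the 4 genes was in 100% and 99.9% of Malat1-poor barcodes with at least 2000 UMIs, unthinned. In Malat1-rich ones it was in 99.3% and 99.9%. Other genes of red cells were mixed. Their list summed to 0.90 (0.70 to 1.10) and 0.81 (0.69 to 0.92). Alas2, the first enzyme of haem synthesis in red cells, had 1.22 and 2.60 and is named here after its values were seen. Bpgm, which makes the phosphate that tunes oxygen release, had 0.84 and 0.96, Fech, the last enzyme of haem synthesis, 0.41 (-0.01 to 0.81) and -0.21 (-0.54 to 0.11), and Slc25a37, an iron carrier of mitochondria, -0.28 and -0.55. Haemoglobin at 2% or more of UMIs was thus confined to few Malat1-poor barcodes. A higher share of UMIs, at nearly equal UMIs per barcode, was spread over many, and the set is named here by its rule.

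**Figure D4:**
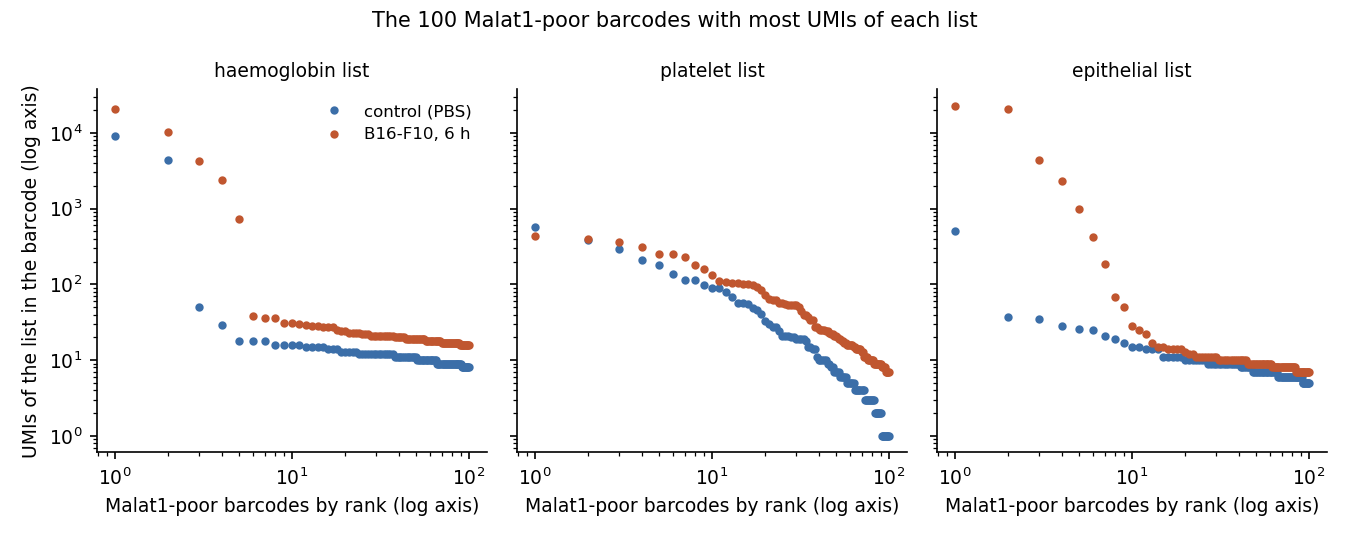
UMIs of the haemoglobin, platelet and epithelial lists in the 100 Malat1-poor barcodes of each library with most of them, in order of size (both axes log). Haemoglobin drops from 4449 to 50 UMIs after the second control barcode and from 723 to 38 after the fifth B16-F10 barcode, while platelet UMIs decline without a break.

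RNA outside cells can be read from near-empty barcodes of 1 to 100 UMIs. There, haemoglobin made up 5.70% of UMIs in control and 4.39% in B16-F10, and Malat1 1.41% and 1.89%. If all 6 and 10 haemoglobin UMIs of a median Malat1-poor barcode were free RNA, it would hold 105 and 228 free UMIs (3.71% and 7.41% of its UMIs), with 1.48 and 4.31 UMIs of Malat1 and 2.06 and 3.44 of the pan-endothelial list. The measured medians were 1 Malat1 UMI in both libraries and 38 and 34 pan-endothelial UMIs. The barcodes were selected on Malat1, Pecam1 and Cdh5, and the part of free RNA in these values was not tested.

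Platelet transcripts were found in a larger share of Malat1-poor barcodes. All 12 platelet genes were higher by 2-fold or more in both libraries, beside 5.87% and 4.75% of all genes, with a sum of 2703 against 155 CPM in control (log2 4.13, 4.07 to 4.18) and 1733 against 126 in B16-F10 (3.78, 3.73 to 3.83). Of the 12 genes highest in Malat1-poor barcodes, 9 were on that list. Pf4 (platelet factor 4) had 1013 UMIs in Malat1-poor and 2861 in Malat1-rich control barcodes, and 1854 and 2401 in B16-F10 (log2 4.17 and 3.95). Ppbp, a chemokine of platelet granules, had 4.25 and 3.99, and Gp5, a subunit of the von Willebrand factor receptor, 4.67 and 4.18. At 3 or more platelet UMIs, 82 of 353 (23.2%, 18.9 to 28.0) and 154 of 880 (17.5%, 15.04 to 20.2) barcodes carried them, against 464 (5.86%) and 466 (6.56%) Malat1-rich ones.

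Thinned to 2000 UMIs, a platelet UMI was found in 31.3% (26.3 to 36.7) and 25.03% (22.1 to 28.2) of Malat1-poor barcodes and 8.44% of Malat1-rich ones in both libraries (unthinned 35.7% and 31.2% against 17.7% and 20.03%). Most Malat1-poor barcodes still had none: the median was 0 in both libraries.

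Markers of other cells were mixed. Mural genes, which mark pericytes and smooth muscle, summed to 325 against 75.8 CPM in control and 345 against 117 CPM in B16-F10. Unthinned, 47 (13.3%) and 117 (13.3%) Malat1-poor barcodes had 3 or more UMIs, against 384 (4.85%) and 648 (9.12%) Malat1-rich ones. Thinned to 2000 UMIs, 35.7% (30.5 to 41.3) and 34.3% (31.0 to 37.7) of Malat1-poor barcodes had a mural UMI, against 8.79% and 12.5%. Cox4i2 and Higd1b, both pericyte genes, had 2.90 and 2.07 in control and 1.79 and 2.03 in B16-F10. Macrophage and monocyte genes summed to log2 2.71 and 1.46, with Lyz2 (lysozyme) at 2.70 and 1.63 and Tyrobp, a signalling adaptor, at 0.55 and -1.25. Epithelial genes summed to 0.90 in control and 4.40 in B16-F10, where 2 barcodes held 22960 and 20837 of 55140 UMIs and Scgb1a1, a secreted protein of club cells, gave 48228 of the sum. Thinned to 2000 UMIs, 20.7% and 22.7% of Malat1-poor barcodes had a macrophage or monocyte UMI, against 5.05% and 8.62%. For an epithelial UMI the shares were 81.5% and 78.5% against 61.4% and 57.4%. Fibroblast genes rested on 129 and 457 UMIs (2.38 and 1.12), lymphoid genes on 11 and 49 (-0.99 and -2.22) and neutrophil genes on 3 and 40 (-0.30 and -1.78). Melanoma genes had 11 UMIs in control (-1.79), of which Mitf gave 10, and 1583 in B16-F10 (2.94), 672 of them in 1 barcode. Unthinned, 3 or more melanoma UMIs were less frequent in Malat1-poor (12, 1.36%) than in Malat1-rich B16-F10 barcodes (244, 3.43%). This order was not kept at equal depth. At 2000 UMIs per barcode, 13.9% (11.6 to 16.5) of Malat1-poor and 10.4% (9.72 to 11.2) of Malat1-rich B16-F10 barcodes had a melanoma UMI. At that depth, 1.00% and 0.127% had 5 or more. In control, after PBS, 168 Malat1-rich barcodes (2.12%) and no Malat1-poor barcode had 3 or more melanoma UMIs, unthinned. Only 2 of the 8 genes on the list had enough UMIs in control for a ratio. Dct, a melanocyte gene, gave 3 of the 1933 list UMIs in Malat1-rich control barcodes, and 1157 of 4143 in B16-F10. A barcode with 3 or more UMIs of the list is thus not called a melanoma cell here, in either library. How much of each count came from melanoma cells was not tested.

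An alternative chosen after seeing the data left out barcodes with 3 or more platelet, mural, macrophage or melanoma UMIs, 0.5% or more epithelial UMIs or 2% or more haemoglobin UMIs. It kept 233 control and 610 B16-F10 Malat1-poor barcodes and 6905 and 5751 Malat1-rich ones. The nuclear list was then at -2.23 and -1.98, ribosomal protein mRNA at 1.33 and 1.06 and genes over 100 kb at -0.98 and -0.94. The RNA profile was therefore as large without those barcodes. Haemoglobin was at 1.19 (1.12 to 1.27) and 1.53 (1.496 to 1.57) and the platelet list at 1.46 and 1.60, but both lists served to leave barcodes out, so their lower values follow from the omission.

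Over all genes, 794 were 2-fold higher and 2599 lower in Malat1-poor control barcodes, and 653 and 2995 in B16-F10. Scaled to the median of all genes, the counts came to 1054 and 2131, and to 1262 and 1954, so the excess of lower genes shrank with that scaling. Genes that overlap ribosomal RNA repeats (Gm42418, AY036118) had 0.79 and 1.00 in control and 0.77 and 0.93 in B16-F10, although Gm26917 from the same list had -1.71 and -2.49.

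The B16-F10 library was also set against control within Malat1-poor barcodes, where treatment and library cannot be told apart. The study's list of genes of reactive capillary cells (rCap), which it chose partly on these libraries and which is thus no independent evidence of direction, had 43 of 44 genes with at least 50 UMIs. All 43 were higher in the B16-F10 library, with a median log2 ratio of 1.20, and 24 passed 2-fold. Of all 7840 genes tested in Malat1-poor barcodes, 4.16% were 2-fold higher and 2.24% lower, with a median of -0.04. In Malat1-rich barcodes, where 5.21% and 3.19% of 14952 genes passed, the same 43 genes had a median of 1.34. Summed, the list was at 8942 CPM in control and 15129 CPM in B16-F10 Malat1-poor barcodes. Near-empty barcodes held 9676 and 16798 CPM of it, and the part of free RNA was not tested.

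Pim3, a serine/threonine kinase, had 107 UMIs (84.4 CPM) in control and 939 (279 CPM) in B16-F10, a log2 ratio of 1.73 (1.44 to 2.03) beside 1.86 in Malat1-rich barcodes. Bcl3, a co-regulator of NF-κB, had 12 and 293 UMIs (3.20, 2.38 to 4.17, beside 2.74). Inhbb, the activin beta B subunit, had 4 and 324 UMIs (4.93, 3.56 to 6.82, beside 4.70). For each of these 3 genes the interval in Malat1-poor barcodes held the value of Malat1-rich ones. Pim3 was found in 18.98% of Malat1-poor barcodes in control and 44.6% in B16-F10.

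**Figure D5:**
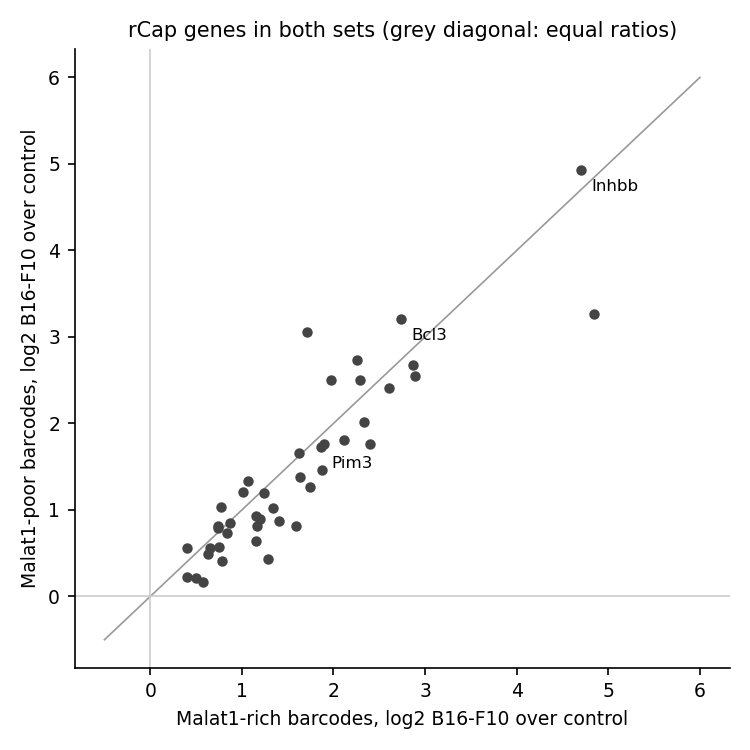
Log2 ratio of CPM, B16-F10 over control, of 43 rCap genes in Malat1-rich (x axis) and Malat1-poor barcodes (y axis), 1 point per gene. Genes with under 3 UMIs in 1 library are drawn at the bound that 3 UMIs give; all points lie above 0 on both axes, with medians of 1.34 and 1.20, and the grey diagonal marks equal ratios.

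Other lists changed differently in the 2 sets. Ribosomal protein mRNAs had a median of 0.04 in Malat1-poor barcodes, with 51 of 79 higher, and of 0.29 in Malat1-rich ones, with 79 of 79 higher. Immediate early genes had medians of 0.86 and 1.09, and 10 of 14 against 16 of 16 were higher. Jun and Klf2, transcription factors that respond within minutes to stress and to flow, had -0.03 and -0.35 in Malat1-poor barcodes beside 0.39 and 0.32 in Malat1-rich ones. The differences between the sets were not tested.

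The 5 genes highest in B16-F10 over control Malat1-poor barcodes were Dct, Scgb3a2, Hp, Ptgds and Scgb1a1, which include markers of melanocytes (Dct) and of airway epithelium (Scgb1a1, Scgb3a2). Scgb1a1 had 429 and 48228 UMIs, of which 22803 lay in 1 barcode, and it was found in fewer B16-F10 than control barcodes (35.8% and 55.8%). Dct, an enzyme of melanin synthesis, had 1 and 898 UMIs, 428 of them in 1 barcode. Ptgds, a prostaglandin synthase, had no UMI in control and 448 in B16-F10, in 5.23% of Malat1-poor barcodes, with 177 in 1 barcode. For each of these genes a single barcode thus gave a large part of the sum.

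The 5 lowest were Zbtb16, Slc6a2, Prss23, Id2 and Vcam1, 3 of which are on the vein list. All 8 measured vein genes were lower in the B16-F10 library among Malat1-poor barcodes (median -1.04), against 4 of 9 among Malat1-rich ones (median 0.11). Barcodes with 5 or more vein UMIs numbered 33 of 353 (9.35%, 6.52 to 12.9) and 47 of 880 (5.34%, 3.95 to 7.04), and 5 control barcodes held 487 of the 1014 UMIs. The vein result thus rested on few control barcodes. Zbtb16, a zinc finger transcription factor, was spread more widely. It had 161 UMIs in control, at most 7 per barcode, and 43 in B16-F10, and was found in 29.2% and 3.41% of Malat1-poor barcodes. Its log2 ratio was -3.31 (-3.83 to -2.82), and -0.00 (-0.04 to 0.03) in Malat1-rich barcodes, where 58.9% and 53.8% held it. Id2, an inhibitor of helix-loop-helix factors, was lower in both sets, at -1.64 and -1.42.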

How the data were processed

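The authors deposited raw UMI counts per gene and barcode for 2 single-cell libraries (control and B16-F10, 1 each), whose headers name Cell Ranger 7.2.0, covering all barcodes without filter or normalization. The build is mm10 per the submitters' processing notes. The paper's methods give an earlier Cell Ranger version, and the use of intronic reads or strand is not given in the sources used here. Barcodes were chosen by the limits stated in the report. UMIs were summed per set and library and divided by the set's total (CPM), with exact Poisson intervals. Ratios carry exact conditional binomial, shares Clopper-Pearson and differences Newcombe 95% intervals, for counting error only. With 1 library a group, nothing was tested. Genes needed 50 UMIs over both sums, and a sum under 3 UMIs was set to a floor of 3. The sets held 1267629 and 3362416 (Malat1-poor) and 64303604 and 67464970 (Malat1-rich) UMIs. Of 32285 gene IDs, 32235 matched GENCODE M21 (GRCm38), which gave lengths and coordinates. Doublets were scored with Scrublet in scanpy 1.11.5 for an alternative only, and called barcodes were kept in the values of the report. The calculations were tested on simulated data. The members, gene lists and tests were chosen with earlier results of these data known. Named genes were Malat1, Pecam1, Cdh5, the haemoglobin genes, Neat1, Pim3, Bcl3, Inhbb, up to 4 members per list with most UMIs, the 12 highest and 12 lowest of Malat1-poor over Malat1-rich (at least 200 UMIs per library, ranked by the smaller ratio) and the 5 highest and 5 lowest of B16-F10 over control. 1 list member under this rule is not reported here.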

Additional observations from a re-analysis of the deposited data

Results flagged for a closer look

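The melanoma list went opposite ways in the 2 libraries, with a log2 ratio of Malat1-poor over Malat1-rich barcodes of -1.79 in control, on 11 UMIs, and 2.94 in B16-F10. The vein list, B16-F10 over control, had -1.09 in Malat1-poor barcodes and 0.15 in Malat1-rich ones, summed over its genes. The epithelial list had 3.41 in Malat1-poor and -0.10 in Malat1-rich barcodes for the same comparison, with 22960 and 20837 of the 55140 B16-F10 UMIs in 2 barcodes. None of these differences was tested.

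Barcodes that the comparisons left out were often low in Malat1. With 300 to under 1000 genes and 2 or more UMIs of Pecam1 plus Cdh5, 65.3% in control and 80.9% in B16-F10 had under 0.5% Malat1. Among barcodes of 1000 to 5000 genes with under 2 UMIs of Pecam1 plus Cdh5, 46.7% (56 of 120) and 64.9% (216 of 333) did. In both groups the share was higher in the B16-F10 library, beyond counting error.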

How the results depend on the processing

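The 21 results recomputed were shares, the gene lists named below, the rCap list in B16-F10 over control, and counts of genes. Shares and counts of genes cannot be negative, so only the log2 ratios and the difference in share could change direction. None of the 234 alternative values changed direction. Other lists did, among them the aerocyte and lymphatic ones as stated in the report. Lymphoid genes in control came to 0.44 against Malat1-rich barcodes under 4000 UMIs and to 1.66 without barcodes with markers of other cells. Immediate early genes in control went from -0.40 to 0.45 against Malat1-rich barcodes under 4000 UMIs. The rCap list, Malat1-poor over Malat1-rich, went from -0.18 in control and -0.30 in B16-F10 to 0.03 in both there. In B16-F10 without barcodes with markers of other cells, neutrophil genes were at 0.78 and other red cell genes at -0.03. Of the 234, 107 stayed within the counting interval or 1.5 times the count, and 127 moved further. Those that moved are given as log2 ratios of Malat1-poor over Malat1-rich barcodes in control and B16-F10, in this order, with the lists named by their RNA class, and the cause was not tested. A Malat1 limit of 0.25% gave nuclear RNA -2.64 and -2.32, detained-intron -0.85 and -0.80, long-gene -1.06 and -1.07, ribosomal protein 1.28 and 0.99, mitochondrial 1.16 and 0.98, haemoglobin 3.24 and 3.17 and the B16-F10 share 10.2%. A limit of 1% gave nuclear RNA -1.47 and -1.32, detained-intron -0.53 and -0.54, long-gene -0.74 and -0.76, ribosomal protein 1.03 and 0.84, mitochondrial 0.85 and 0.76, haemoglobin 2.81 and 3.38, the control share 5.91%, the B16-F10 share 13.6% and the difference in share 7.74 points. Taking Malat1 as a share of UMIs other than mitochondrial and haemoglobin gave long-gene -0.99 and -1.005, ribosomal protein 1.23 and 0.97 and haemoglobin 3.00 (B16-F10). A minimum of 5 Pecam1 plus Cdh5 UMIs gave nuclear RNA -2.06 and -1.75, detained-intron -0.68 and -0.64, long-gene -0.94 and -0.89, ribosomal protein 1.17 and 0.93, mitochondrial 0.97 and 0.90, haemoglobin 3.40 and 2.16, the control share 2.60%, the B16-F10 share 7.04% and the difference in share 4.44 points. A minimum of 300 genes with no upper limit gave detained-intron -0.86 (control), long-gene -1.05 and -0.96, ribosomal protein 1.09 and 0.93, mitochondrial 1.08 and 0.94, haemoglobin 2.72 and 2.86, the control share 8.80%, the B16-F10 share 16.7% and the difference in share 7.94 points. A limit of 10% mitochondrial UMIs gave long-gene -0.98 (B16-F10), ribosomal protein 0.96 (B16-F10), mitochondrial 1.04 and 0.91 and haemoglobin 2.98 (B16-F10). Leaving out the barcodes with the highest Scrublet scores gave long-gene -0.99 and -0.99, ribosomal protein 1.23 and 0.98, mitochondrial 0.94 (B16-F10) and haemoglobin 2.91 and 2.93. Thinning to 2000 UMIs gave nuclear RNA -2.18 (B16-F10), detained-intron -0.90 and -0.79, long-gene -1.05 and -1.01, ribosomal protein 1.36 and 1.04, mitochondrial 1.15 and 0.99, haemoglobin 2.13 and 2.03 and the B16-F10 share 10.2%. Setting the median ratio over all genes to 0 gave nuclear RNA -1.64 (B16-F10), detained-intron -0.60 and -0.39, long-gene -0.84 and -0.65, ribosomal protein 1.36 and 1.30, mitochondrial 1.20 and 1.27, haemoglobin 3.10 and 3.30, 1262 genes higher (B16-F10) and 1954 genes lower (B16-F10). A minimum of 10 UMIs per gene gave 1075 genes higher (B16-F10). A minimum of 200 gave 457 genes higher (control) and 340 genes higher (B16-F10). A 1.5-fold threshold gave 1792 genes higher (control), 4360 genes lower (control), 1480 genes higher (B16-F10) and 5144 genes lower (B16-F10). Leaving out barcodes with markers of other cells, chosen after seeing the data, gave detained-intron -0.68 and -0.64, long-gene -0.94 (B16-F10), ribosomal protein 1.33 and 1.06, mitochondrial 1.11 and 0.99 and haemoglobin 1.19 and 1.53. Comparing with Malat1-rich barcodes under 4000 UMIs, also chosen after seeing the data, gave nuclear RNA -2.89 and -2.88, detained-intron -1.17 and -1.20, long-gene -1.44 and -1.52, ribosomal protein 2.47 and 1.93, mitochondrial 0.66 and 0.48, haemoglobin 2.55 and 1.73, 1527 genes higher (control) and 1483 genes higher (B16-F10). No paired analysis was possible because there is only 1 library per treatment, and for the same reason no replicate could be left out. The intervals cover counting error only, and Malat1-poor barcodes held few UMIs of the nuclear list (245 and 579), which limits its single genes.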
